A study of Rattus norvegicus with 6 samples.

Results

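Glutamine tRNAs carry glutamine to the ribosome, and their fragments were read out in small RNA libraries of rat muscle. The family comprised every distinct read sequence that matched a mature nuclear Gln-CTG or Gln-TTG tRNA without a mismatch and no other mature tRNA, at any position along the molecule. It held 566 of the 77567 distinct sequences in the deposited alignment and 11772 reads, and 9746 sequences in all matched mature nuclear tRNAs exactly. The family was selected on its read counts in the experimental against the control libraries, where its fragments were lower, so comparisons of the experimental with the control libraries below describe the choice. Calls from a fit across all fragments are counted for the members beside the share of all fragments called, and they are no independent test of the family. Another 987 glutamine sequences with 1 mismatch and 10 exact ones that also matched a mature tRNA of another family were left out. The deposited alignment placed none of the 566 on a precursor or a mitochondrial tRNA. The precursors hold the mature sequences but for the CCA added at the 3' end. Fragments without any of that CCA therefore cannot be told from pieces of precursors.

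The series title concerns small tRNA-derived RNAs as markers of acute rejection in vascularized composite allotransplantation, the grafting of a limb or another block of several tissues. There were 3 control libraries (titled ctrl) and 3 experimental libraries (titled exp), all from muscle of rats of the strain lewis aged 6 to 8 weeks. The labels do not say what the experimental animals received. A skin phenotype in the labels and the design text describe normal and UV-damaged mouse skin, which does not match rat muscle, so the groups were taken from the titles alone. Whether each library stands for an animal of its own is not stated, and a p-value then reflects variation among these 6 libraries, which could be technical. The table holds tRNA reads only, so the tissue could not be checked against marker genes of muscle. In whole tissue, fewer cells of a type and less RNA per cell cannot be told apart.

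Transfer RNAs are cut by nucleases into fragments that are named by where they lie. A cut in the anticodon loop, made for example by angiogenin in stressed cells, leaves a long 5' and a long 3' piece. A cut in the T loop leaves a short 3' fragment ending in the CCA tail to which the amino acid is attached, and such fragments (tRF-3) are known to bind Argonaute proteins. Gln-CTG reads the codon CAG and Gln-TTG the codon CAA.

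The files listed 11 mature glutamine tRNAs, 7 with the anticodon CTG and 4 with TTG, for 16 precursors. Whole molecules of 3 of them are shown because the fragments are placed on them. They were read from the deposited alignment, 5' to 3', with DNA letters and the added CCA, and capitals mark the anticodon at positions 34 to 36. Positions count from 1 at the mature 5' end.
Gln-CTG-1-1: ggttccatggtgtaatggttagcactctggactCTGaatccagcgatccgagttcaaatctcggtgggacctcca
Gln-CTG-2-1: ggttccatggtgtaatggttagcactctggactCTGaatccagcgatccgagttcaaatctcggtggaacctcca
Gln-TTG-1-1: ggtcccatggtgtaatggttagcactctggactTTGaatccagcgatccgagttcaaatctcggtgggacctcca

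In the files Gln-CTG-1-1 lay at chr2:198503162-198503233, Gln-CTG-2-1 at chr8:70216060-70216131 and Gln-TTG-1-1 at chr10:83672049-83672120, without a strand and on a build that no source used here names. Substitutions are given against Gln-CTG-1-1, with its base first and that of the other tRNA last. Gln-CTG-2-1 differed by G68A alone, and Gln-CTG-3-1 by C44T and G68A. Gln-TTG-1-1 differed by T4C and by C34T, the first base of the anticodon. By the pairing drawn in the files, the acceptor stem spanned positions 1 to 7 and 65 to 71, and the anticodon loop positions 32 to 38. The T loop spanned positions 53 to 59, and CCA took positions 73 to 75. An A at position 68 was found in 2 of the 11 mature tRNAs, which stand for 4 of the 16 precursors. The last mature tRNA of the list, Gln-CTG-8-1, held none of the 566 sequences. It was 76 nt long with CCA and differed at 8 positions from Lys-CTT-1-1, the other mature tRNA nearest to it.

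The fragments that the results turn on are shown next. Those of positions 58 or 59 to 75 held most of the short 3' reads, and capitals mark base 68.
Gln-CTG 59-75 A68: tctcggtggAacctcca
Gln-CTG and Gln-TTG 59-75 G68: tctcggtggGacctcca
Gln-CTG 58-75 A68: atctcggtggAacctcca
Gln-CTG and Gln-TTG 58-75 G68: atctcggtggGacctcca

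The internal fragments and the 5' fragment below came from the anticodon arm or ran up to it, and capitals mark the anticodon where they include it.
Gln-CTG 27-41: ctggactCTGaatcc
Gln-CTG 25-41: ctctggactCTGaatcc
Gln-CTG 23-41: cactctggactCTGaatcc
Gln-CTG 30-50: gactCTGaatccagcgatccg
Gln-CTG 1-30: ggttccatggtgtaatggttagcactctgg

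The libraries held 316990 to 740627 tRNA-aligned reads in the control against 876494 to 1927269 in the experimental group. Reads that matched mature nuclear tRNAs exactly numbered 186608 to 462602 and 530855 to 1265318. Among those of tRNAs other than glutamine, 5' fragments made up 92.9% to 98.4% in the 6 libraries. Mitochondrial tRNAs took 4.02%, 11.3% and 14% of the tRNA-aligned reads in control libraries 1, 2 and 3 and 13.2%, 2.07% and 7.30% in experimental libraries 1, 2 and 3. Their part in the results below was not tested. Normalised CPM below are relative to the reads of the 2226 sequences that passed a low-count filter, scaled by trimmed mean of M values factors of 0.984 to 1.19 in the control against 0.563 to 1.46 in the experimental libraries.

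Glutamine fragments were a small share of the nuclear tRNA reads, and that share differed widely among the control libraries. They took 1.20%, 0.238% and 0.566% of the exact nuclear reads in control libraries 1, 2 and 3, from 4590, 1100 and 1057 reads. In experimental libraries 1, 2 and 3 they took 0.397%, 0.130% and 0.107%, from 2108, 1647 and 1270 reads. Control library 1 was highest, and control library 2 lay below experimental library 1, so the groups overlapped. The means were 0.666% ± 0.486 (SD, n = 3) and 0.212% ± 0.161 (SD, n = 3). Without control library 1 the control mean was 0.402%, and without experimental library 1 the experimental mean was 0.119%. The 95% Wilson interval ran from 1.16% to 1.23% in control library 1 and from 0.224% to 0.252% in control library 2. Counting error was thus smaller than the gap between these libraries of 1 group. Intervals and floors of this kind account for counting error alone, because copies made by PCR are not separate molecules.

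By reads, the family was made up of other positions than the pool of all other nuclear tRNAs. Families with many reads weigh most in that pool, and the make-up of single families was not compared. By position, 463 of the 566 sequences were internal, 70 were short 3' fragments, 18 were 5' fragments and 15 were long 3' fragments. A 5' fragment started at position 1 to 3, a 3' fragment ended in the last 4 positions, and it was a long 3' fragment where it started at or before position 38. Short 3' fragments took 86.7%, 51.2% and 69.0% of the glutamine reads in control libraries 1, 2 and 3 and 47.1%, 49.2% and 51.7% in experimental libraries 1, 2 and 3. Control library 2 lay within the range of the experimental libraries, and the other control libraries lay above it. Internal fragments took most of the remainder, with 12.9%, 47.9% and 30.8% in the control against 49.2%, 48.3% and 45.7% in the experimental libraries. In other nuclear tRNAs, short 3' fragments took 0.480% to 3.48% and internal fragments 1.00% to 3.30% of the reads.

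**Figure D1:**
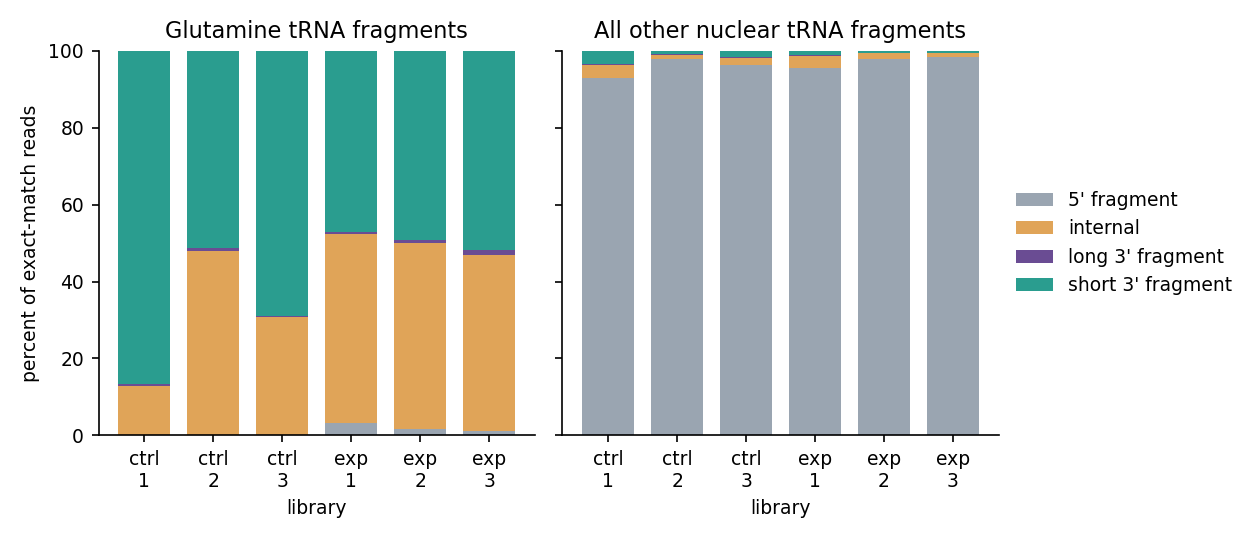
Stacked bars give the percent of exact-match reads in each position class (vertical axis, 0 to 100 percent) for the 3 control (ctrl) and 3 experimental (exp) libraries, with glutamine tRNAs on the left and all other nuclear tRNAs on the right. Short 3' and internal fragments fill most of every glutamine bar, whereas 5' fragments take 92.9% or more of every bar on the right.

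Within each library, 5' glutamine reads were compared with 3' reads (long and short 3' fragments together), a comparison that does not use the groups. The log2 ratio of 5' to 3' reads, with 1 read added to each, averaged -7.14 ± 2.83 (SD, n = 6) and ran from -10.96 to -3.86. It was negative in 6 of 6 libraries (two-sided exact sign-flip permutation test, p = 0.03125, the smallest p that 6 libraries can give). With the Gln-CTG comparison below, 2 such tests were run, and both keep an adjusted p of 0.03125 by the Benjamini-Hochberg procedure.

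Reads of 5' glutamine fragments were nearly confined to the experimental libraries. There were 1, 1 and 0 such reads in control libraries 1, 2 and 3 and 68, 28 and 14 in experimental libraries 1, 2 and 3. These were 0.0218%, 0.0909% and 0% of the glutamine reads in the control against 3.23%, 1.70% and 1.10% in the experimental libraries, and the groups did not overlap. The 0 of 1057 reads in control library 3 allows a share of up to 0.284%. Even so, glutamine took at most 0.0135% of all nuclear 5' reads in any library, against 10.2% to 23.1% of the short 3' reads. The 5' fragment with the most reads, Gln-CTG 1-30, stops before the anticodon loop, in the 5' strand of the anticodon stem. It had 0 reads in each control library and 26, 15 and 9 in the experimental ones, at least 7.10-fold higher CPM against a floor of 3 reads over the control group. That bound was 4.87-fold without experimental library 1. Gln-CTG 1-29 had 16, 0 and 1 reads in the experimental libraries and none in the control, and Gln-TTG 1-29 had 1, 0 and 0 against 13, 3 and 0. No 5' glutamine fragment passed the low-count filter of the comparison across all fragments.

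**Figure D2:**
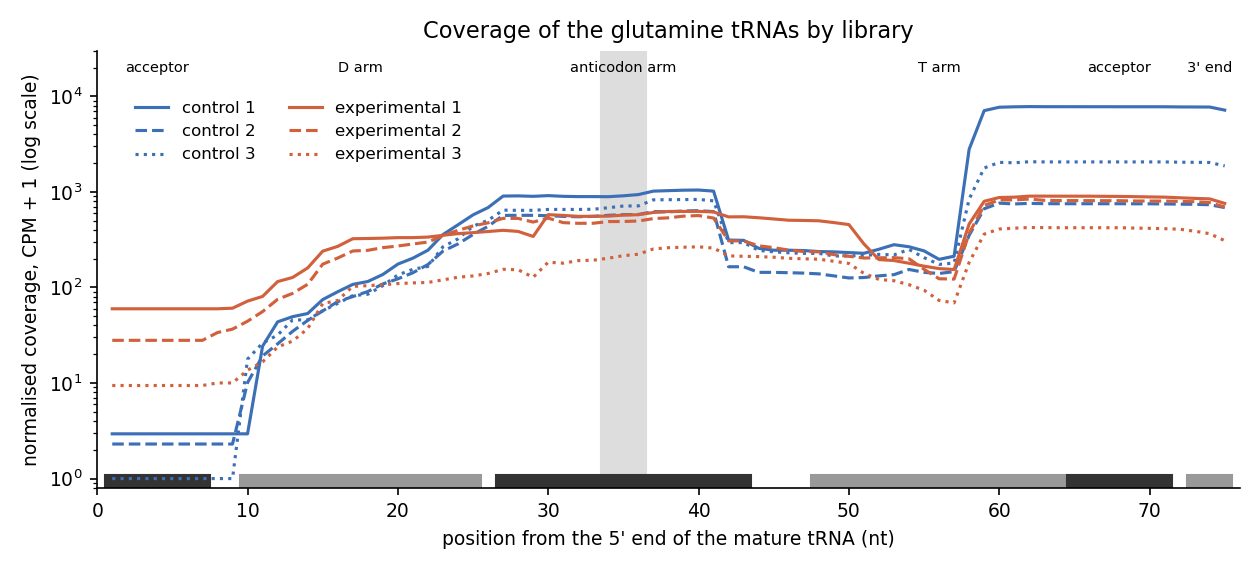
Normalised coverage (CPM + 1, log scale) of the exact glutamine reads at each position of the mature tRNA, as 1 line per library; the shaded column is the anticodon and the bars at the bottom mark the arms and the CCA end. Coverage at position 1 is 0 to 1.94 CPM in the control against 8.42 to 58.8 CPM in the experimental libraries, and at position 60 it is 408 to 7692 CPM over all 6.

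The short 3' fragments began around the 3' end of the T loop. Starts at positions 58 to 60 took 97.2%, 86.0% and 91.6% of the short 3' reads in control libraries 1, 2 and 3 and 84.1%, 91.0% and 88.3% in experimental libraries 1, 2 and 3. Position 59 was the most frequent start in each library, at 39.5% to 55.6%. Coverage therefore stepped up between positions 57 and 60, from 211 to 7692 CPM in control library 1 and from 67.9 to 408 CPM in experimental library 3. In other nuclear tRNAs, starts 16 to 18 nt before the 3' end took 55.7% to 91.1% of the short 3' reads. A second set of starts, at positions 51 and 52 in the T stem, took 0.302%, 0.710% and 0.274% of the glutamine short 3' reads in the control libraries. In experimental libraries 1, 2 and 3 it took 11.1%, 0.370% and 6.09%. Experimental library 2 lay within the control range, so the groups overlapped.

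The whole CCA was present on 92.7%, 92.9% and 91.6% of the short 3' glutamine reads in control libraries 1, 2 and 3. It was present on 87.5%, 88.0% and 76.9% in experimental libraries 1, 2 and 3, and the groups did not overlap. Reads that ended in CC took 7.06%, 6.04% and 7.82% in the control against 9.87%, 9.12% and 13.1% in the experimental libraries. Short 3' reads of other nuclear tRNAs carried the whole CCA in 88.9%, 81.5% and 87.8% against 81.0%, 73.9% and 61.7%, so whole ends were also fewer there in the experimental libraries.

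Base 68 splits the short 3' reads between 2 tRNAs and the others. The A of Gln-CTG-2-1 and Gln-CTG-3-1 was on 71.1%, 60.9% and 66.4% of these reads in control libraries 1, 2 and 3. In experimental libraries 1, 2 and 3 it was on 67%, 64% and 68%. The group means were 66.1% ± 5.07 (SD, n = 3) and 66.3% ± 2.09 (SD, n = 3), a difference of 0.210 percentage points that is smaller than the spread within either group. So in each library over 60% of the short 3' reads carried the base held by 2 of the 11 mature tRNAs. How many copies of each tRNA the muscle held was not measured.

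The 4 most abundant glutamine fragments were those that run from position 58 or 59 to the end. The authors' fragment type for all 4 was tRF-3a, and each was higher in control library 1 than in any other library. Gln-CTG 59-75 A68 was at 2949, 151 and 579 CPM in control libraries 1, 2 and 3 and at 202, 200.3 and 106 CPM in experimental libraries 1, 2 and 3. Its partner of 59-75 with G68, shared by CTG and TTG, was at 997, 125 and 274 CPM against 96.0, 109 and 35.5 CPM. The fragment with A68 overlapped between groups, since control library 2 lay below experimental libraries 1 and 2, and the fragment with G68 did not, though its lowest control was close to its highest experimental value.

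The fragments that start 1 nt earlier were also highest in control libraries 1 and 3. Gln-CTG 58-75 A68 was at 1551, 122 and 391 CPM in the control against 170 CPM, 130.0 CPM and 61.3 CPM in the experimental libraries. Its G68 partner was at 859, 77.9 and 215 CPM against 113, 93.4 and 35.5 CPM. Both overlapped between groups, again through control library 2. The ratio of A68 to G68 reads at 58-75 was 1.81, 1.57 and 1.82 in the control against 1.5, 1.39 and 1.73 in the experimental libraries. At 59-75 it was 2.96, 1.21 and 2.11 against 2.11, 1.84 and 2.95, and at 58-74, from fewer reads, it ran from 0.6 to 2.4 over the 6 libraries. It thus varied by library and by end, with overlap between groups at each.

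The other 6 short 3' fragments that passed the filter ended at position 75 or 74 and were less abundant. Gln-CTG and Gln-TTG 60-75 G68 was at 186, 42.9 and 89.5 CPM in the control against 21.6, 21.2 and 12 CPM in the experimental libraries, with no overlap. Gln-CTG 60-75 A68 was at 415, 62.4 and 151 CPM against 51.9, 69.3 and 25.9 CPM, with overlap. Gln-CTG 62-75 A68, the shortest at 14 nt and at the lower length limit of the table, was at 33.0, 9.09 and 47.5 CPM against 21.6, 19.3 and 4.81 CPM. Among the fragments that lack the last A, Gln-CTG and Gln-TTG 59-74 G68 was at 75.6, 18.2 and 30.8 CPM against 11.2, 17.3 and 10.2 CPM. Gln-CTG 59-74 A68 and Gln-CTG 58-74 A68 overlapped between groups. Control library 1 held the highest value in all but Gln-CTG 62-75 A68, where control library 3 did.

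**Figure D3:**
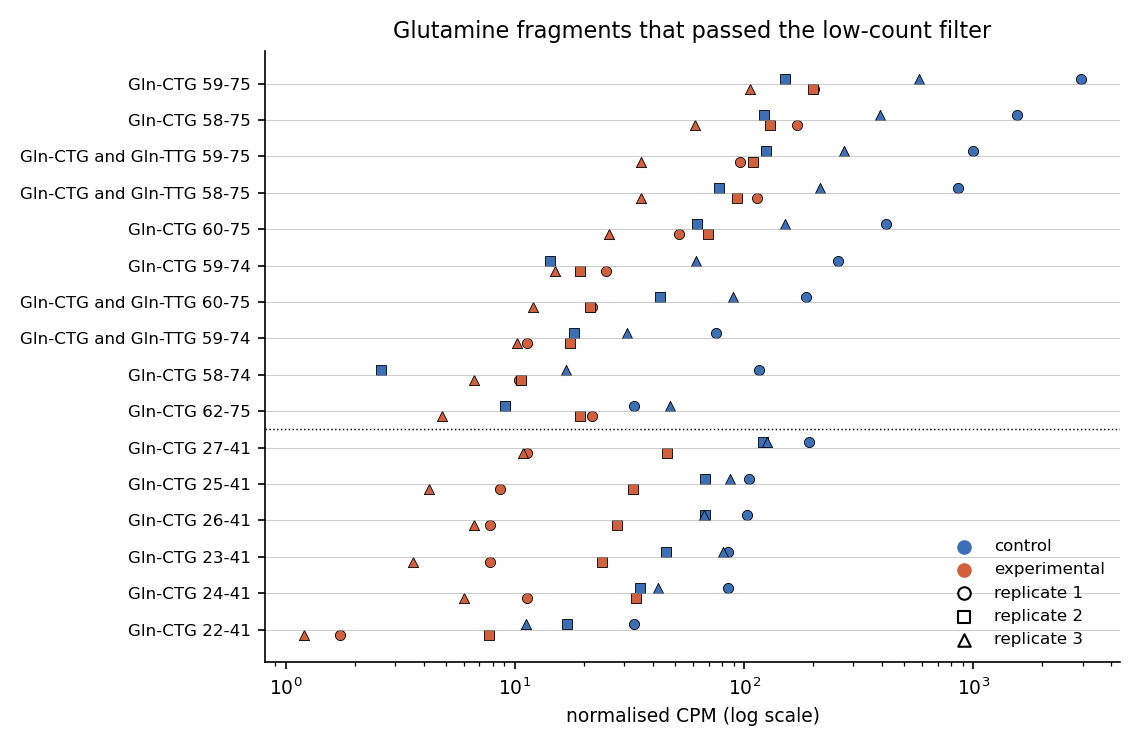
Normalised CPM (horizontal axis, log scale) of the 16 glutamine fragments that passed the low-count filter, with 1 point per library; blue is control, orange is experimental and the shape gives the replicate. Rows above the dotted line are short 3' fragments, named by first and last position, where Gln-CTG alone carries A and Gln-CTG with Gln-TTG carries G at position 68; rows below it are internal fragments ending at position 41. The blue and orange points do not overlap in any row below the line, nor in 3 of the 10 above it. Of all fragments tested, 14.6% were lower without overlap and 26.1% higher.

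The long 3' fragments, which begin in or before the anticodon loop, were few. They numbered 16, 9 and 2 reads in control libraries 1, 2 and 3 and 9, 13 and 18 in experimental libraries 1, 2 and 3. The reads in the table end at 40 nt, so longer ones were not analysed here. The 3 with the most reads all came from Gln-CTG-2-1 alone. Gln-CTG 37-74 had 4, 2 and 0 reads in the control against 3 in each experimental library, Gln-CTG 36-75 had 8, 1 and 0 against 2, 2 and 4, and Gln-CTG 35-74 had 0 against 0, 2 and 4. None passed the low-count filter, and their groups were not compared by a test.

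The internal fragments lay in a few groups with shared ends, which were chosen after their values were seen. The largest in the control libraries ended at position 41, inside the 3' strand of the anticodon stem, and started in or before the 5' strand. It comprised 40 sequences of 14 to 34 nt and took 61.9%, 67.9% and 56.4% of the internal glutamine reads in control libraries 1, 2 and 3. In experimental libraries 1, 2 and 3 it took 7.71%, 30.4% and 13.1%, so the groups did not overlap. In CPM, the group was at 712, 465 and 515 in the control against 69.2, 233 and 45.7 in the experimental libraries, again with no overlap. An internal end 5 nt after the anticodon took 0.292% to 1.24% of the pooled internal reads of other nuclear tRNAs. That position was picked from the glutamine reads. Whether other tRNA families have a frequent internal end of their own elsewhere was not tested. Glutamine as a whole held 3.85% to 8.80% of all nuclear internal reads.

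The fragments of this group shared an end and differed in their start. Starts at positions 19 to 27 took 95.9%, 91.3% and 94.6% of its reads in control libraries 1, 2 and 3 and 78.8%, 86.8% and 85.5% in experimental libraries 1, 2 and 3. Gln-CTG 27-41, the whole anticodon stem and loop but for the last 2 paired bases, led in the control libraries with 192 CPM, 121 CPM and 126 CPM. It was at 11.2, 46.2 and 10.8 CPM in the experimental libraries, of which library 2 was the highest. Gln-CTG 25-41 was at 105, 67.6 and 86.7 CPM against 8.65, 32.7 and 4.21 CPM, and Gln-CTG 23-41 at 85.3, 45.5 and 81.1 CPM against 7.78, 24.1 and 3.61 CPM. Gln-CTG 26-41 ranged from 67.1 to 103 CPM against 6.61 to 27.9 CPM, and Gln-CTG 24-41 from 35.1 to 85.3 CPM against 6.01 to 33.7 CPM. Gln-CTG 22-41, the least abundant, had 17, 13 and 4 reads against 2, 8 and 2. None of the 6 overlapped between groups in CPM, with Gln-CTG 24-41 the closest to doing so. Of all 2226 fragments tested, 14.6% were lower without overlap and 26.1% higher. The 6 share an end and most of their bases, so they are not separate observations.

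Every sequence of this group includes the anticodon, and 24 of the 40 were of Gln-CTG and 16 of Gln-TTG. Gln-CTG had 344, 319 and 170 such reads in control libraries 1, 2 and 3 and 75, 220 and 72 in experimental libraries 1, 2 and 3. Gln-TTG had 23, 39 and 14 against 5, 22 and 4. Both anticodons thus gave fewer reads in experimental libraries 1 and 3 than in any control library, although these experimental libraries were deeper.

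A further group ran through the anticodon loop to the T stem, from a start at positions 30 to 32 to an end at positions 49 to 51. Its 26 sequences had 5, 1 and 0 reads in control libraries 1, 2 and 3 and 431, 14 and 146 in experimental libraries 1, 2 and 3. These were 0.843%, 0.190% and 0% of the internal glutamine reads in the control against 41.5%, 1.76% and 25.1% in the experimental libraries. In CPM, the group was at 9.69, 1.30 and 0 in the control against 373, 13.5 and 87.8 in the experimental libraries. The groups did not overlap by share or CPM, but experimental library 2 lay far below the other experimental libraries. In CPM it was close to control library 1, so this separation depends on the scaling. The share also rises where fragments ending at position 41 are fewer. Gln-CTG 30-50, the leading fragment of the group, had 0 reads in each control library and 156, 4 and 54 in the experimental ones, at least 30.4-fold higher CPM against a floor of 3 reads over the control group. Without experimental library 1 that bound was 11.8-fold. Gln-TTG sequences in the group had 0 control reads and 44, 1 and 30 experimental reads. Fragments with the corresponding ends took 0.0877%, 0.384% and 0.114% of the internal reads of other nuclear tRNAs in the control against 1.93%, 0.790% and 0.913% in the experimental libraries.

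Another group ran from the D arm into the anticodon stem, from a start at positions 12 to 17 to an end at positions 28 to 31. Its 39 sequences had 22, 15 and 9 reads in control libraries 1, 2 and 3 and 230, 126 and 112 in experimental libraries 1, 2 and 3. It took 3.71%, 2.85% and 2.76% of the internal glutamine reads in the control against 22.2%, 15.8% and 19.3% in the experimental libraries. By this share the groups did not overlap, and the 3 experimental libraries were close to each other. In CPM, the group was at 42.7, 19.5 and 25.2 in the control against 199, 121 and 67.3 in the experimental libraries. The CPM did not overlap either, but the experimental libraries differed more among themselves. The pair of sequences at positions 15 to 28 had 0 control reads and 31, 31 and 29 experimental reads, at least 12.9-fold higher CPM against a floor of 3 reads over the control group. A last group, of 16 sequences that start at position 37, just after the anticodon, took 7.25%, 5.69% and 12% against 2.99%, 3.40% and 7.75% of the internal glutamine reads, with overlap. In CPM it was at 83.4, 39.0 and 109 against 26.8, 26 and 27.1, without overlap and lower in the experimental libraries.

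**Figure D4:**
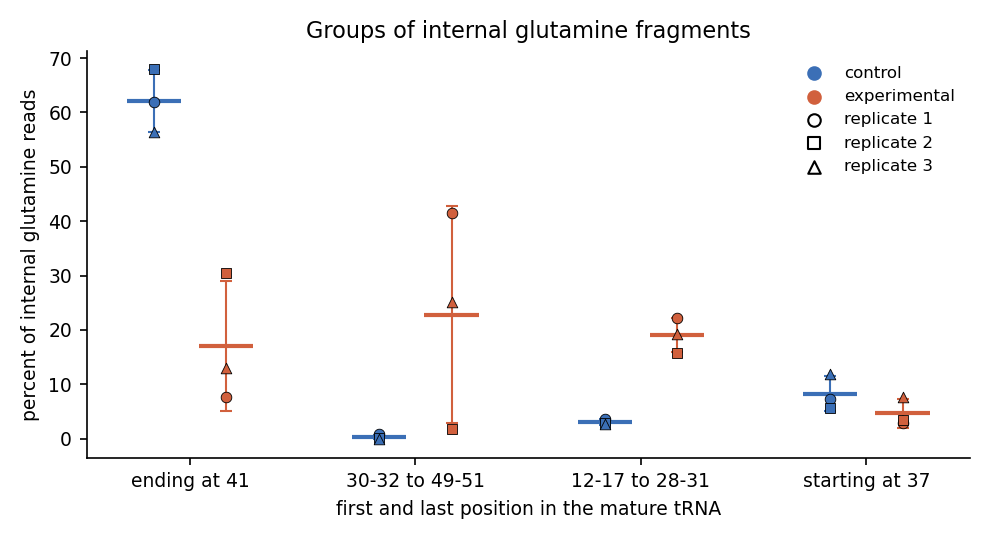
Percent of the internal glutamine reads (vertical axis) in each of the 4 groups of internal fragments, with 1 point per library, the group mean as a bar and the SD of 3 libraries as whiskers. Fragments ending at 41 are at 56.4% to 67.9% in the control against 7.71% to 30.4% in the experimental libraries, and the groups at 30-32 to 49-51 and 12-17 to 28-31 are higher in every experimental library than in any control library.

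By anticodon, 304 of the 566 sequences were found on Gln-CTG alone, 93 on Gln-TTG alone and 169 on both. Gln-CTG alone had 3281, 748 and 703 reads in control libraries 1, 2 and 3 and 1333, 997 and 797 in experimental libraries 1, 2 and 3. Gln-TTG alone had 41, 51 and 31 reads against 96, 106 and 59. The log2 ratio of Gln-CTG to Gln-TTG reads within a library, with 1 read added to each, averaged 4.22 ± 1.09 (SD, n = 6) and ran from 3.22 to 6.29. It was positive in 6 of 6 libraries (two-sided exact sign-flip permutation test, p = 0.03125, the smallest p that 6 libraries can give). The comparison rests on which positions can tell the anticodons apart: only 2 short 3' sequences were found on Gln-TTG alone, against 39 on Gln-CTG alone. Sequences found on Gln-CTG alone were 71.5%, 68% and 66.5% of the glutamine reads in the control libraries and 63.2%, 60.5% and 62.8% in the experimental ones, with no overlap.

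Across all 2226 sequences that passed the low-count filter, 16 were exact glutamine fragments, 6 of them internal and 10 short 3' fragments. Of these 16, 6 were called lower in the experimental libraries at an adjusted p under 0.05 (limma voom with Benjamini-Hochberg adjustment over all 2226) and 0 higher. Of all fragments tested, 7.64% were called lower and 18.7% higher. At an unadjusted p under 0.05, 12 glutamine fragments were lower and 0 higher, against 282 lower and 548 higher of all 2226. The CPM of 9 of the 16 did not overlap between groups and was lower in the experimental libraries, as was that of 14.6% of all fragments tested, and 26.1% did not overlap and were higher. Because the contrast chose the family, and because a sequence passes the filter most easily through the group where it is high, these counts describe the 16 and support nothing about the rest of the family. The filter asked for enough reads in 3 libraries, which Gln-CTG 30-50 missed through experimental library 2.

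The median log2 fold change of the 16 was -1.95, against 0.21 over all fragments tested. It was -2.85 over the 6 internal fragments and -1.77 over the 10 short 3' fragments. The largest difference was that of Gln-CTG 27-41, at -3.0 ± 0.906 (SE), and the smallest that of Gln-CTG 62-75 A68, at -0.92 ± 0.954 (SE). The 6 called lower were 5 of the 6 fragments ending at position 41, all but Gln-CTG 24-41, and the 60-75 fragment with G68. The fit gave all fragments a pooled spread. With each fragment's own spread, 0 of the 16 were called lower (6 at an unadjusted p under 0.05), and 0 higher, against 0.359% lower and 0.674% higher of all fragments. Of all 2226, 204 were lower and 386 higher at an unadjusted p under 0.05 in that fit. Without experimental library 3, voom called 0 of 24 tested glutamine fragments lower (3 at an unadjusted p under 0.05), where 4.14% of all fragments were called lower. Without control library 2 it called 13 of 29 lower, where 5.65% of all fragments were.

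Beside them, the 155 internal fragments of other nuclear tRNAs had a median log2 fold change of -0.30, with 6 called lower and 4 higher. The 79 short 3' fragments of other nuclear tRNAs had a median of -1.14, with 9 called lower and 0 higher. The 178 5' fragments of other nuclear tRNAs had a median of 1.20, with 3 called lower and 52 higher. Medians of the short 3' fragments were thus below 0 in glutamine and in the other tRNAs. The 6 internal glutamine fragments all end at position 41, and none of the internal groups that were higher in the experimental libraries had a member that passed the filter, so their median does not stand for the internal fragments. Summed over all internal glutamine reads, CPM was 1150, 685 and 912 in control libraries 1, 2 and 3 and 898, 766 and 349 in experimental libraries 1, 2 and 3, with overlap. Differences between these sets were not tested.

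**Figure D5:**
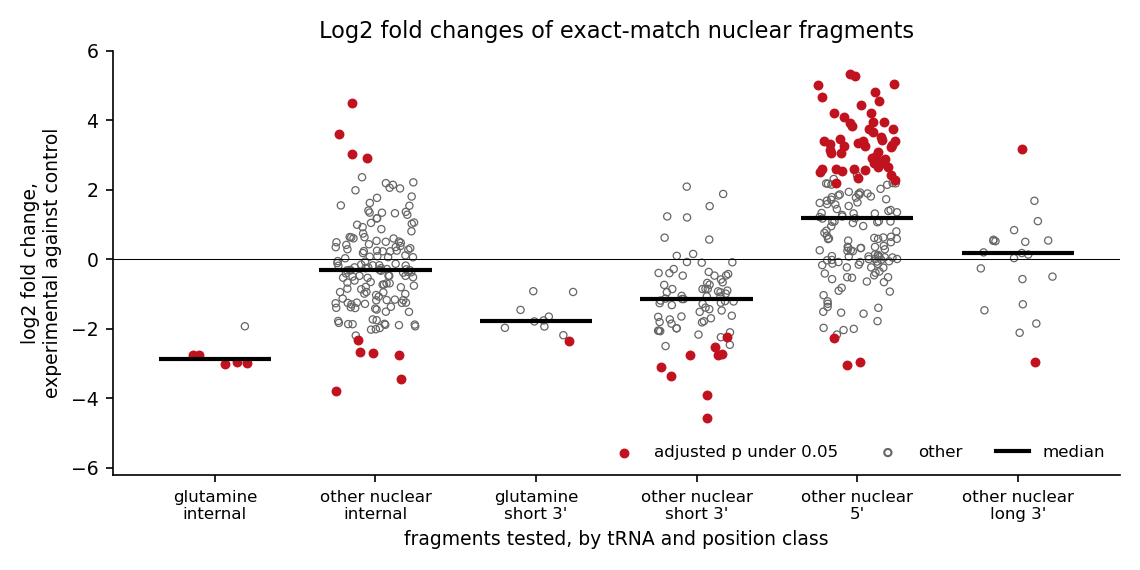
Log2 fold change of the experimental against the control libraries (vertical axis) for the tested exact-match nuclear fragments, with 1 point per fragment, filled red where the adjusted p is under 0.05 and open otherwise; black bars are medians. The glutamine medians are -2.85 for internal and -1.77 for short 3' fragments, and no glutamine point lies above 0.

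Summed over its members, the family was at 8900 CPM, 1429 CPM and 2956 CPM in control libraries 1, 2 and 3 and at 1823, 1586 and 764 CPM in experimental libraries 1, 2 and 3. Control library 2 again lay below experimental libraries 1 and 2. Of 45 nuclear anticodon sums compared over the 6 libraries, Leu-AAG, Leu-TAG, Leu-CAG, Ile-AAT and Phe-GAA lay nearest to this pattern, in that order. The measure was the root mean square difference of log2 CPM, each centred on its own mean, and came to 0.216, 0.234, 0.270, 0.289 and 0.474. The 6 libraries share their depth and scaling in all of these sums, so the values describe likeness only.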

How the data were processed

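Small RNA was sequenced from 3 control and 3 experimental rat muscle samples, grouped by title. The authors deposited, as the headers and values show, a raw count of reads for each distinct sequence and library. Reads were aligned to mature tRNAs with CCA and to precursors with at most 1 mismatch. The 1812 lines of text between the counts were skipped, and voom was used rather than a count model. The submitters' processing notes list mm9, which is not a rat build. The aligner is not given in the sources used here. All 141197 library counts checked against the read names of the single-library alignments were equal. The table holds sequences of 14 to 40 nt. No column of another sample was present (0).

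Each sequence was counted once. Position classes came from first and last positions. To be tested, a sequence needed a total of 15 counts and, in 3 libraries, the CPM that 10 counts give at median depth. Libraries were scaled by trimmed mean of M values (trims 0.3 and 0.05). In R 4.3.3, voom of limma 3.58.1, with a prior count of 0.5, was fitted to all 2226 sequences with no covariate, with a Benjamini-Hochberg threshold of 0.05. The fit's prior degrees of freedom were infinite, so standard errors of the glutamine fragments were alike, at 0.873 to 1.03. Python 3.11.15 with pandas 2.3.3 and scipy 1.17.1 did the rest, and the procedure was tested on simulated data. Floors are 3 counts over the control group, or of 1 library's total for a share, and Wilson intervals are at 95%. The ratios within libraries were tested by flipping the sign of each library's log2 ratio, in all combinations.

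The members and lists were chosen with earlier results of these data known. Named fragments are every member that passed the filter, the 3 with the highest mean share of glutamine reads in each position class, and the 5 nearest anticodon sums. The groups of internal fragments, the pair at positions 15 to 28 and the base 68 comparison were chosen after their values were seen. Alternatives covered scaling, filters, the spread, the test, exact matches, ends, mismatches, pseudocounts, a replicate block and leaving out each library.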

Additional observations from a re-analysis of the deposited data

How the results depend on the processing

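Of 16 tested fragments, 6 were called lower and 0 higher, and the median log2 fold change was -1.95. Of all 2226 fragments tested, 7.64% were lower and 18.7% higher, with a median of 0.21. With no low-count filter (566 tested) there were 20 lower and 16 higher, with a median of -0.29; of all fragments then tested 1.22% were lower and 2.80% higher, and their median was also -0.29. With each fragment's own spread there were 0 lower, where 0.359% of all fragments were. Leaving out each library in turn gave 0 to 13 lower, 0 to 2 higher and medians of -2.68 to -1.06 (-1.06 without control library 1); 0 lower came without experimental library 3 and 13 without control library 2. In these fits 4.14% to 8.99% of all fragments were lower and 6.89% to 21.2% higher. Median-of-ratios scaling, library totals, a stricter filter, limma on log2(CPM + 1) and exact matches only gave 5 to 8 lower, 0 higher and medians of -2.45 to -1.94. The 8 came from the stricter filter, with 10 tested, and the others tested 16. Of all fragments, 5.26% to 10.5% were lower and 9.74% to 20.2% higher under these settings. Median-of-ratios scaling and library totals moved the median of all fragments from 0.21 to 0.01 and -0.07. Of the 16 tested fragments under these settings, only Gln-CTG 58-74 A68 changed sign, ranging from -2.32 to 0.32 when a library was left out (0.32 without control library 1). Calls of the 60-75 G68 fragment were lost under library totals, no filter, own spread, limma on log2(CPM + 1), the block and 5 of the 6 left-out libraries. Those of Gln-CTG 22-41 were lost under no filter, own spread, the block and 4 left-out libraries, and that of Gln-CTG 26-41 under no filter, own spread and without experimental library 3. Own spread and leaving out experimental library 3 ended the calls of all 6.

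The experimental minus control share of glutamine reads (-0.455 percentage points) ranged from -0.669 to -0.191 when a library was left out, and the short 3' share difference (-19.6 points) from -28.5 to -10.7. The smallest of both differences came without control library 1. Mismatched or shared sequences and strict ends moved both by less than 1 SD. The sign-flip tests gave mean log2 ratios of 3.81 to 4.42 (anticodons) and -7.79 to -6.37 (5' against 3') without 1 library, with the sign unchanged in every remaining library; 5 libraries cannot give a p below 0.0625. A pseudocount of 0.5 and added mismatches left p at 0.03125.

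Same-numbered libraries did not deviate together (correlations of -0.310, -0.0573 and 0.136), so the numbers are not taken as pairs. With the replicate block, 4 glutamine fragments were lower and 0 higher, with a median of -1.96. Of all fragments, 6.33% were lower and 16.4% higher in that fit. Depth limits the 5' fragments, long 3' fragments and control reads of the groups absent there, which rest on few counts. With 3 libraries a group, of which control library 1 and experimental library 2 often stood apart, group means are imprecise.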
